A study of Mus musculus with 4 samples.

Results

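The clustered histone genes are the genes whose symbols begin with Hist1h, Hist2h, Hist3h or Hist4h, and 70 of the 54232 genes in the deposited table were chosen by that rule. They comprised 6 H1, 20 H2A, 19 H2B, 12 H3 and 13 H4 genes. On GRCm38, 56 have Hist1 symbols and lie on chromosome 13, all in the Hist1 cluster except the pseudogene Hist1h2al (51202727 to 51203065), 10 in Hist2 on chromosome 3, 3 in Hist3 on chromosome 11 and 1, Hist4h4, on chromosome 6. RNA was measured by strand-specific sequencing in whole testes of B6D2F1 mice on postnatal day 17, when the most advanced germ cells have entered meiosis. There were 2 libraries from Dis3 conditional knockout mice (KO) and 2 from control mice (WT). The DIS3 protein is a catalytic subunit of the RNA exosome, a complex that removes RNA in the 3′ to 5′ direction. The labels read here name neither the Cre driver of the knockout nor the alleles of the controls, so the cells that lost Dis3 are not identified. Since no label ties the libraries to separate animals, the p-values cover only the spread among them, which may be technical.

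Histones H2A, H2B, H3 and H4 form the protein core of the nucleosome, and H1 is the linker histone that binds where DNA enters and leaves it. Clustered histone genes are mostly replication-dependent: they are transcribed in S phase, lack introns, and give mRNAs that end in a conserved stem-loop bound by the stem-loop binding protein (Slbp) in place of a poly(A) tail. Male germ cells add their own variants from the same clusters, among them the testis linker histone H1t (Hist1h1t), the testis H2A (Hist1h2aa) and the testis H2B (Hist1h2ba), which enter chromatin around meiosis and are later replaced by transition proteins and protamines.

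The stem-loop is the feature that sets the end of these mRNAs, so it was read from the annotated transcripts (GENCODE M21, whose positions were identical for all 70 members). A match of 16 bases, searched on the transcript strand, was found in 46 of the 70 members (65.7%) and in 0.0614% of the 55380 other genes with a transcript. In the lines below the stem-loop is in capitals with 5 bases on either side, for the members the results turn on, written as DNA.
Hist1h1t: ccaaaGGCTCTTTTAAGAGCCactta
Hist1h3f: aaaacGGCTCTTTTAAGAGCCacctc
Hist1h2bj: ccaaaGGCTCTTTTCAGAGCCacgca
Hist1h2ad: acaaaGGCTCTTTTCAGAGCCatcca
Hist1h4c: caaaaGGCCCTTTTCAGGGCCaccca
Hist1h4a: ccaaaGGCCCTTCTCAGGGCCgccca
Hist1h3g: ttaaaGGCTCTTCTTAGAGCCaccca
The form in Hist1h2bj and Hist1h2ad was shared by 26 members of the H1, H2A, H2B and H3 classes, that in Hist1h4c by 7 members, all H4 genes, and that in Hist1h1t and Hist1h3f by 6 members. The forms of Hist1h4a and Hist1h3g occurred in 1 member each. The annotated transcripts of Hist1h2aa, Hist1h2ba, Hist1h2ak and Hist1h1a, among others, held no match; that says only that the letters are not in the annotated model, and the models of Hist1h2aa and Hist1h2ba are 390 and 384 bases long. Which 3′ end the sequenced molecules carried was not tested.

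The promoters of the germ cell variants are shown because they differ in layout from each other. RefSeq promoter windows (GRCm38.p6, 250 bases before the start and 50 after it) were available for 61 members. Capitals mark the TATA box (TATAAA), the CCAAT box (CCAAT), the octamer (ATTTGCAT) and the H1 box (AAACACA) on either strand; matches of different motifs were counted independently of each other.
Hist1h2aa, chr13:23934187-23934486, plus strand: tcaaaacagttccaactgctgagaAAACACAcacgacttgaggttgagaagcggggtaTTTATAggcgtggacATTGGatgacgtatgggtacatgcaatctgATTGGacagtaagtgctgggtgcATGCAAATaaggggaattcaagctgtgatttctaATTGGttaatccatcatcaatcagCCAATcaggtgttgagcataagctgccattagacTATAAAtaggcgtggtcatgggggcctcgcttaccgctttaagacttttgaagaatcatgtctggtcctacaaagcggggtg
Hist1h1t, chr13:23695561-23695860, plus strand: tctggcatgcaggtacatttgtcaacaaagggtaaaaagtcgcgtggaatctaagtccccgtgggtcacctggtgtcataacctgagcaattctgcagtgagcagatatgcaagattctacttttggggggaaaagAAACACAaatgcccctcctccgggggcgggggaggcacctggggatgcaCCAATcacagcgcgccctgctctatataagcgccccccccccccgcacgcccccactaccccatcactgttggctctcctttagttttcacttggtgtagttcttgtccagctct
Hist1h2aa and Hist1h2ba are head to head, with 305 bases between their annotated ends, and the Hist1h2ba window (chr13:23934107-23934406, minus strand) covers most of the same bases. That stretch held 4 CCAAT boxes, 1 octamer and 1 H1 box, with a TATA box 32 bases before the Hist1h2aa start and another, facing Hist1h2ba, 94 bases before the Hist1h2ba start. The Hist1h1t window held a CCAAT box 65 bases and an H1 box 114 bases before the start. Across the classes, the CCAAT box was present in all 6 H1, 17 H2A, 16 H2B and 10 H3 windows and in 3 of 12 H4 windows, against 37.4% of all 32851 promoters. The octamer was present in 7 of 17 H2A and 7 of 16 H2B windows, against 1.7% of all promoters, and the H1 box in 5 of 6 H1 windows, against 7.2%. The TATA box was present in 35 of the 61 windows, against 13.6%. Matches were counted at any place in a window, so some lay far from the start or after it. The TATA match of Hist1h2bk lay 198 bases before its start, and that of Hist1h4a 42 bases after its start. Windows of head-to-head genes, such as Hist1h2ah and Hist1h2bk, share bases, so the same match can count for both genes.

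The gene table held 17663416 and 19255782 reads for KO replicates 1 and 2, and 31031920 and 40329170 reads for WT replicates 1 and 2. Dis3 itself had 39.4 and 42.8 CPM (read counts relative to the TMM-scaled library size) in KO testes, against 80.0 and 80.4 CPM in WT testes, a log2 fold change (KO over WT) of -0.96 ± 0.0729 (SE). Clustered histone genes took 0.403% and 0.408% of all gene reads in the KO libraries, and 0.484% and 0.453% in the WT libraries. Reads of near-identical copies were left out by the authors' counting wherever they aligned to several places, so levels of such copies are lower bounds. Of the members, 36 share at least 50% of their 50-base windows with another gene's transcript, read on either strand, and 5 share 100%. A gene that overlaps a member at the same place also counts as sharing. Among the 5, Hist2h3b and Hist2h2bb are overlapped by Gm20628 on the opposite strand. The shares therefore do not measure how many reads were left out. In whole testis, fewer cells of a type and less RNA per cell cannot be told apart.

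Most of the signal came from few members. Per length, Hist1h2aa had 2128 and 1982 CPM per kb in KO testes, against 2748 and 2507 CPM per kb in WT testes, the highest level of any member by mean. Hist1h2ba came next at 1584 and 1551 CPM per kb in KO, against 2259 and 2054 CPM per kb in WT, below Hist1h2aa in each library. After the head-to-head testis pair stood the H2A gene Hist1h2ak (768 and 835 CPM per kb in KO, 1075 and 1110 in WT). Then came the H4 gene Hist1h4c (569 and 514 CPM per kb in KO, 719 and 765 in WT). This order depends on the annotated lengths, 393 bases for Hist1h2ak and 820 for Hist1h4c. In CPM, Hist1h4c was above Hist1h2ak in each library (467 and 422 against 302 and 328 in KO, 589 and 627 against 422 and 436 in WT). Hist1h1a, a linker histone gene, followed with 457 and 443 CPM per kb in KO and 640 and 546 CPM per kb in WT, below Hist1h4c in each library. Hist1h4a (202 and 192 CPM per kb in KO, 285 and 250 in WT), Hist1h1t (159 and 165 in KO, 230 and 242 in WT), Hist1h2bb and Hist1h4h were the next group, and their ranges over libraries overlapped each other. The H3 genes were low. The highest per kb, Hist1h3h, had 22.1 and 33.8 CPM per kb in KO, against 42.1 and 46.6 in WT.

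**Figure D1:**
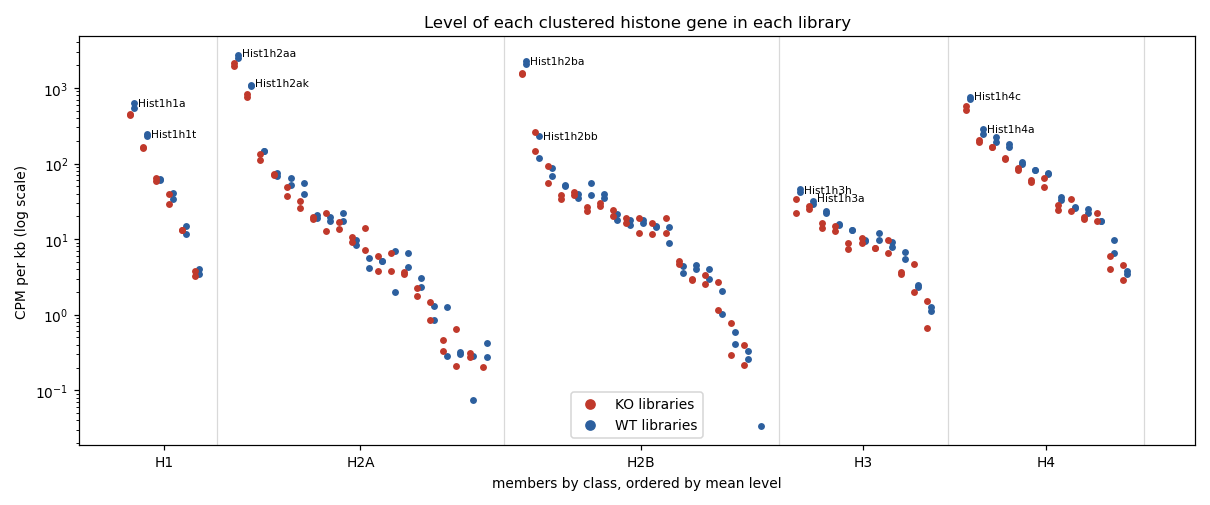
CPM per kb (log scale) of each clustered histone gene in each library, by class and in order of mean level; red points, left, are the 2 KO libraries and blue points the 2 WT libraries, and values of 0 are not drawn. Hist1h2aa and Hist1h2ba lead at over 1500 CPM per kb in all 4 libraries, and no H3 gene passes 46.6.

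The main comparison asked which clustered histone genes differed between Dis3 knockout and control testes. Of 64 members with enough reads to be tested, 25 (39.1%) were lower in KO, 1 (1.56%) was higher and 38 did not pass (edgeR quasi-likelihood test, adjusted p under 0.05 over all genes). Among all 25076 genes tested, 20.3% were lower and 11.6% were higher. Of the 16578 genes with at least 5 times the background reads, to which 62 of the 64 tested members belong, 30.6% were lower and 8.45% higher. The median log2 fold change was -0.19 over the tested members and 0.05 over all genes tested, and it was -0.12 over the genes at 5 times background. Without 1 library the median of the members was -0.40 to -0.23, lowest without KO replicate 2, and by DESeq2 it was -0.30. All 6 untested members had few or no uniquely assigned reads: Hist1h2aj, Hist1h2ap, Hist2h2aa1, Hist2h2aa2, Hist1h2bq and Hist2h3c1. With library totals in place of TMM, the median of all genes moved to 0.20, that of the members to -0.03, and 18 members were lower and 3 higher.

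**Figure D2:**
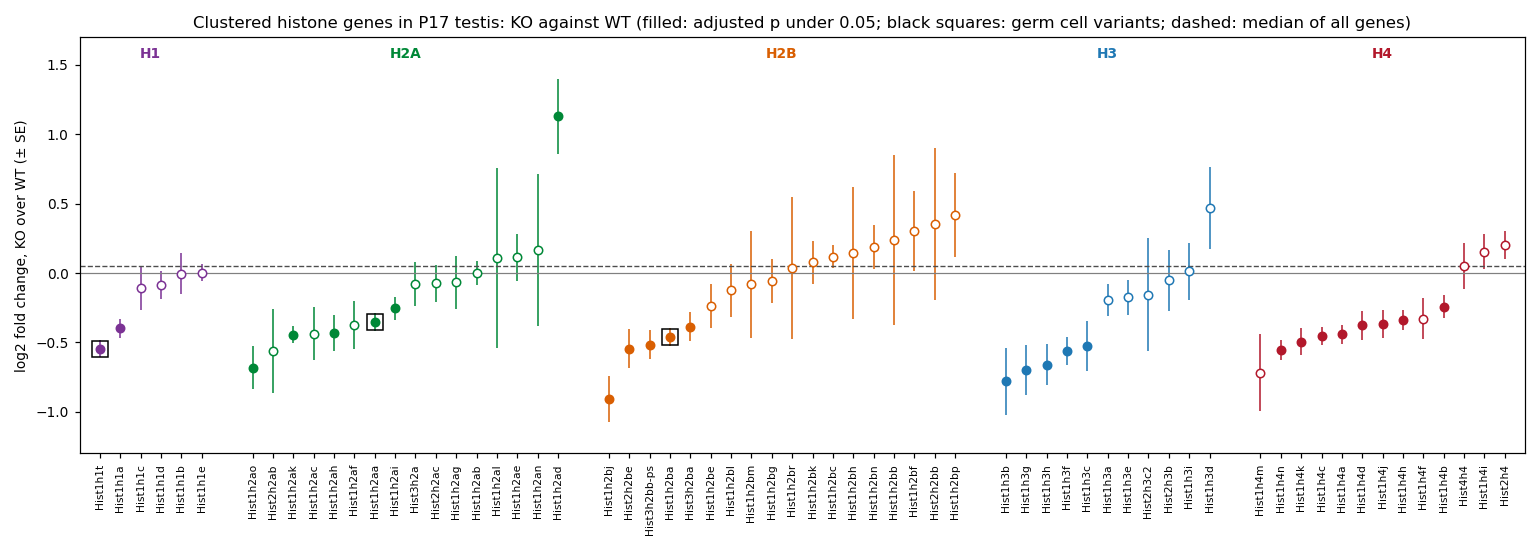
Log2 fold change (KO over WT, ± SE) of the 64 tested clustered histone genes, by class; filled points have an adjusted p under 0.05, black squares mark the germ cell variants and the dashed line the median of all genes (0.05). The called members lie between -0.24 and -0.91 except Hist1h2ad at 1.13.

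By class, 8 of 13 tested H4 genes were lower (median log2 fold change -0.37), 5 of 11 H3 genes (-0.20), 5 of 16 H2A genes (-0.17), 2 of 6 H1 genes (-0.10) and 5 of 18 H2B genes (-0.01). In the same order these shares were 61.5%, 45.5%, 31.2%, 33.3% and 27.8%, beside 20.3% of all genes tested and 30.6% of genes at 5 times background. The H2A, H1 and H2B shares were near that of genes at 5 times background. In the main edgeR test no H1, H2B, H3 or H4 gene was called higher, and 0 of them had an unadjusted p under 0.05 with a rise. DESeq2 called 0 of them higher. Other edgeR settings called some of them higher, among them Hist2h4 and Hist1h2bc with library totals (0.35 and 0.27). The differences between classes were not tested. Leaving out 1 library at a time gave 3 to 8 lower H2A genes (3 without WT replicate 2, 8 without KO replicate 2) and 4 to 8 lower H2B genes (8 without KO replicate 1). DESeq2, and edgeR without WT replicate 2, each gave 3 lower H3 genes.

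Summed over a class, the order of the classes was similar in both genotypes. H2A genes together had 1291 and 1283 CPM in KO, against 1690 and 1611 CPM in WT. H4 genes had 891 and 887 CPM in KO, against 1152 and 1188 CPM in WT. H2B genes had 961 and 848 CPM in KO, against 1222 and 1054 CPM in WT. H1 genes had 677 and 701 CPM in KO, against 893 and 844 CPM in WT, and H3 genes 73.8 and 88.5 CPM in KO, against 105 and 107 CPM in WT. In each class both KO sums were below both WT sums; 2 against 2 libraries cannot give an exact two-sided permutation p below 0.333, so the sums were not tested. Each class held nearly the same share of all clustered histone CPM in the genotypes, for H4 22.9% and 23.3% in KO and 22.8% and 24.7% in WT. Without Hist1h2ba, the H2B sum was 353 and 252 CPM in KO, against 355 and 266 CPM in WT, and the groups overlapped; without Hist1h2aa, the H2A sum was 461 and 510 CPM in KO, against 618 and 633 CPM in WT.

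All 3 germ cell variants were lower in KO. Hist1h1t (ENSMUSG00000036211, chromosome 13, 23695814 to 23696725), the linker variant of pachytene spermatocytes and spermatids, had 145 and 151 CPM in KO, against 210 and 221 CPM in WT, a log2 fold change of -0.55 ± 0.0602 (edgeR, adjusted p = 2.95e-07). Hist1h2ba (chromosome 13, 23933773 to 23934156) had 608 and 596 CPM in KO, against 867 and 789 CPM in WT (-0.46 ± 0.0630, edgeR adjusted p = 5.67e-06). Hist1h2aa (chromosome 13, 23934462 to 23934851) had 830 and 773 CPM in KO, against 1072 and 978 CPM in WT (-0.35 ± 0.0652, edgeR adjusted p = 0.000191). Both KO libraries lay below both WT libraries for each, as for 32 of the 64 tested members. The share of all genes tested with that order is not given here. Together the germ cell variants held 40.6% and 39.9% of clustered histone CPM in KO and 42.5% and 41.4% in WT. Within its own class, Hist1h1t made up 21.4% and 21.5% of H1 CPM in KO, against 23.5% and 26.2% in WT, Hist1h2ba 63.3% and 70.2% of H2B CPM in KO, against 71.0% and 74.8% in WT, and Hist1h2aa 64.3% and 60.2% of H2A CPM in KO, against 63.4% and 60.7% in WT. Of these shares, that of Hist1h2aa overlapped between the genotypes.

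**Figure D3:**
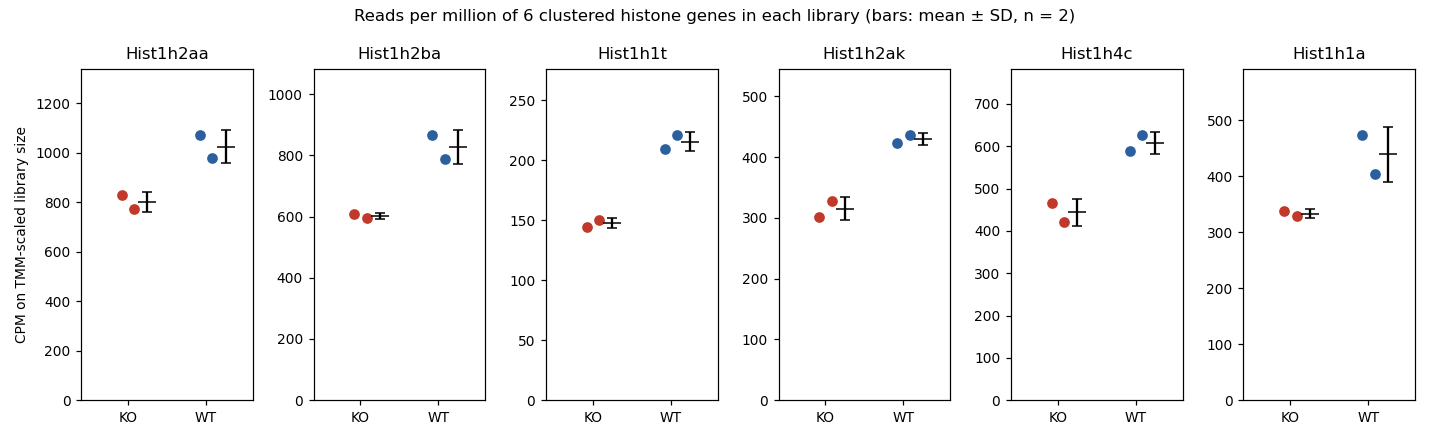
CPM of the 3 germ cell variants and of Hist1h2ak, Hist1h4c and Hist1h1a in each library, KO in red and WT in blue, with mean ± SD (n = 2) beside the points. In each gene both KO points lie below both WT points, as for Hist1h2aa at 830 and 773 CPM in KO and 1072 and 978 CPM in WT.

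Among the linker histone genes, Hist1h1a, which codes for the H1 subtype abundant in testis, was the other gene that fell. It had 339 and 328 CPM in KO, against 474 and 404 CPM in WT (-0.40 ± 0.0683, edgeR adjusted p = 0.000107). The more widely expressed linker gene Hist1h1e had 114 and 123 CPM in KO, against 119 and 117 CPM in WT, and its log2 fold change was 0.0032 ± 0.0626. Hist1h1d had 24.0 and 28.3 CPM in KO, against 25.9 and 29.6 CPM in WT (-0.09 ± 0.101). For Hist1h1e, Hist1h1d, Hist1h1b (-0.0037) and Hist1h1c (-0.11) the KO and WT libraries overlapped. Hist1h1e overlaps Hist1h2be on the same strand, and reads in the overlap were left out.

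Of the H2A genes, whose product pairs with H2B in the nucleosome core, Hist1h2ak had the smallest adjusted p, below that of the testis variant. It had 302 and 328 CPM in KO, against 422 and 436 CPM in WT (-0.45 ± 0.0613, edgeR adjusted p = 5.83e-06). Hist1h2ao had 12.5 and 15.3 CPM in KO, against 26.2 and 18.8 CPM in WT (-0.68 ± 0.152, adjusted p = 0.00328). Hist1h2ah also fell (-0.43), and in these genes both KO libraries lay below both WT libraries. Hist1h2ah was not called without KO replicate 1 (-0.28) or without WT replicate 2 (-0.28), and was -0.70 without KO replicate 2. Hist1h2ai had 43.6 and 52.1 CPM in KO, against 56.7 and 57.6 CPM in WT (-0.25 ± 0.0814, edgeR adjusted p = 0.0200). The call of Hist1h2ai was lost with library totals (adjusted p = 0.370), with a filter of 1 CPM in 2 libraries (0.0673), without KO replicate 1 (-0.16, adjusted p = 0.226), without WT replicate 2 (0.0534) and with background subtracted and TMM computed anew (0.317); without KO replicate 2 it was -0.44.

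The 1 member that rose was the H2A gene Hist1h2ad (chromosome 13, 23574381 to 23574952). It had 74 and 164 reads in KO, against 95 and 90 reads in the deeper WT libraries, or 4.05 and 7.94 CPM in KO, against 3.21 and 2.37 CPM in WT (1.13 ± 0.272, edgeR adjusted p = 0.00471). The rise rests on KO replicate 2, and without that library it was 0.50 with an adjusted p of 0.235. Of its windows, 67.1% are shared with other genes. The nearby H3 gene Hist1h3d also had its highest level in KO replicate 2, with 2.46 and 5.81 CPM in KO and 2.90 and 3.13 CPM in WT. Its log2 fold change was 0.47 and did not pass the main test. Without KO replicate 1 it was 0.92.

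Of the genes for H2B, the partner of H2A in the core, Hist1h2bj had the largest fall of any called member in the main test. It had 12.1 and 10.8 CPM in KO, against 25.8 and 17.5 CPM in WT (-0.91 ± 0.166, edgeR adjusted p = 0.000998). With 1 library left out it was -1.18 to -0.65. Without WT replicate 1 (-0.65), Hist1h3h fell further (-0.77). Hist3h2bb-ps, annotated as a pseudogene, had 17.8 and 15.6 CPM in KO, against 23.5 and 24.3 CPM in WT (-0.52 ± 0.105, adjusted p = 0.000533). Hist2h2be (-0.55) and Hist3h2ba (-0.39) also fell, but neither was called without WT replicate 2 (adjusted p = 0.0593 and 0.115). Hist1h2bb, the second H2B gene by level, had 134 and 73.7 CPM in KO, against 117 and 59.6 CPM in WT, and Hist1h2bm had 48.5 and 28.9 CPM in KO, against 46.4 and 35.3 CPM in WT. In both genes replicate 1 was above replicate 2 in each genotype, and the groups overlapped (0.24 ± 0.61 and -0.08 ± 0.385). Without KO replicate 2, Hist1h2bb was higher in KO (0.56, adjusted p = 2.75e-12), and without KO replicate 1 it was lower (-0.27, adjusted p = 0.00490); Hist1h2bm was lower without KO replicate 1 (-0.52, adjusted p = 1.58e-05). Replicate 1 was above replicate 2 in both genotypes in 11 of the 18 tested H2B genes and the reverse held in 0, while of 16 tested H2A genes these counts were 4 and 7.

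The H3 genes that fell were Hist1h3b, Hist1h3c, Hist1h3f, Hist1h3g and Hist1h3h, which code for the replication-linked core histone H3. Hist1h3f had 17.9 and 20.9 CPM in KO, against 29.7 and 27.6 CPM in WT (-0.56 ± 0.101, edgeR adjusted p = 0.000157). Hist1h3h had 9.08 and 13.9 CPM in KO, against 17.3 and 19.2 CPM in WT (-0.66 ± 0.150, adjusted p = 0.00254), and Hist1h3g had 3.88 and 4.65 CPM in KO, against 6.98 and 6.92 CPM in WT (-0.70 ± 0.179, adjusted p = 0.00434). In each of these the KO libraries were below the WT libraries. Hist1h3h was -1.06 without KO replicate 2 and -0.42 without KO replicate 1, and called in both, while Hist1h3b and Hist1h3c were not called without WT replicate 2 (adjusted p = 0.152 and 0.278). Hist1h3a, the second H3 gene by CPM per kb, had 13.6 and 14.8 CPM in KO, against 15.7 and 16.8 CPM in WT (-0.20 ± 0.115). It did not pass. In CPM, Hist1h3f was above both Hist1h3h and Hist1h3a in each library.

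Among the H4 genes, which encode nearly identical core histones, Hist1h4c carried 52.4% and 47.5% of the class CPM in KO and 51.1% and 52.8% in WT. It had 467 and 422 CPM in KO, against 589 and 627 CPM in WT (-0.45 ± 0.0640, edgeR adjusted p = 8.35e-06). Hist1h4n had 49.95 and 51.7 CPM in KO, against 71.5 and 77.6 CPM in WT (-0.55 ± 0.0722, adjusted p = 2.98e-06). Hist1h4a had 109 and 104 CPM in KO, against 154 and 134 CPM in WT (-0.44 ± 0.0680, adjusted p = 2.63e-05), and Hist1h4h 77.0 and 77.8 CPM in KO, against 90.6 and 105 CPM in WT (-0.34 ± 0.0714, adjusted p = 0.000835). Hist1h4b, Hist1h4d, Hist1h4j and Hist1h4k fell as well. Of these, Hist1h4b was not called without KO replicate 1 or without WT replicate 1 (adjusted p = 0.109 and 0.0676) nor Hist1h4j without KO replicate 1 (0.0749), and Hist1h4d (-0.38) was -0.21 without KO replicate 1 and -0.66 without KO replicate 2. Hist4h4 on chromosome 6, Hist1h4i and Hist2h4 on chromosome 3 had log2 fold changes of 0.05, 0.15 and 0.20 and overlapping groups. Hist2h4 was called higher with library totals (0.35), with a filter of 1 CPM (0.27), with background subtracted and TMM anew (0.33) and without KO replicate 1 (0.34), and so was Hist1h4i without KO replicate 1 (0.35). Hist1h4m (-0.72) and Hist1h4f (-0.33) had no overlap between groups but did not pass.

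By position, 11 of 29 tested members of the middle block of Hist1 , 9 of 21 of its block at lower coordinates and both members of the Hist1h2ba and Hist1h2aa pair were lower. Outside Hist1, 1 of 7 tested Hist2 members and 2 of 3 Hist3 members were lower. By stem-loop match in the annotated transcript, 15 of 42 tested members with a match and 10 of 22 without a match were lower, with medians of -0.17 and -0.30. The shares by match, 35.7% and 45.5%, and the counts by position stand beside 20.3% of all genes and 30.6% of genes at 5 times background. Annotated models without a match include short ones, such as Hist1h2ak (393 bases) and Hist1h4k (312 bases). The split is therefore by annotation, and the 3′ ends of the mRNAs were not tested.

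H2A and H2B genes often share a promoter region head to head, and 14 such pairs had gaps of 172 to 305 bases. Both genes were tested in 11 pairs. The Hist1h2aa and Hist1h2ba pair was the 1 in which both genes fell. In 6 pairs 1 gene fell, and in 4 neither did. Beside these counts, 20.3% of all genes tested and 30.6% of genes at 5 times background were lower. Of tested H2A and H2B genes, 31.2% and 27.8% were lower. The pair counts were not tested against these shares. Hist1h2ak fell (-0.45), while its partner Hist1h2bn was at 0.19 ± 0.160. Hist1h2bj fell (-0.91), while its partner Hist1h2ag was at -0.07 ± 0.193. Whether partners differed from each other was not tested.

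**Figure D4:**
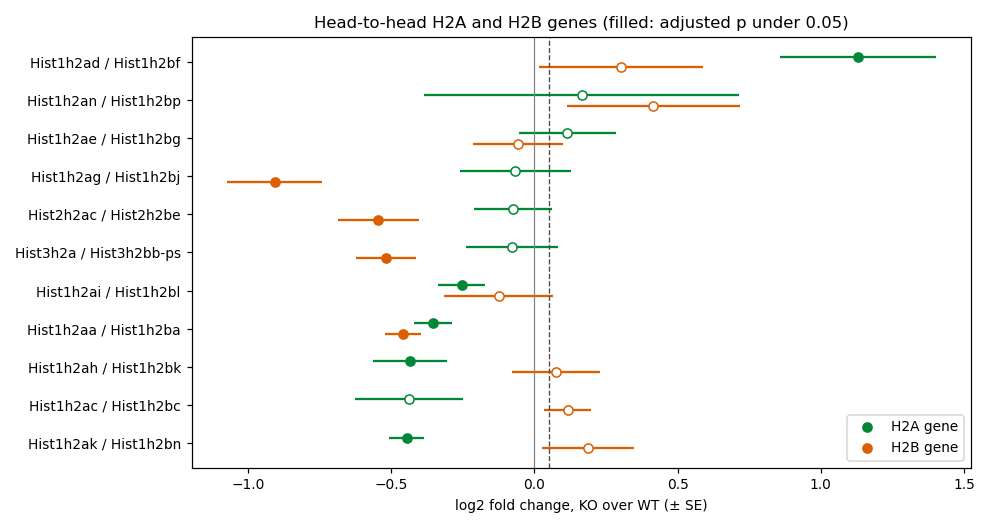
Log2 fold change (KO over WT, ± SE) of the H2A gene (green) and the H2B gene (orange) of the 11 head-to-head pairs with both genes tested; filled points have an adjusted p under 0.05. Hist1h2aa and Hist1h2ba are filled together (-0.35 and -0.46), and in no other pair are both filled.

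The deposited tables also counted reads in the 3000 bases upstream of genes, where the exosome degrades short-lived transcripts that leave promoters in the antisense direction. Of 30166 regions 9 belong to clustered histone genes, and none of the 9 overlaps another annotated gene. On the antisense strand, 3 of the 8 tested regions were higher in KO (edgeR on the library sizes of the gene table), and 11.5% of all 18596 regions were called higher and 0.113% lower, with a median log2 fold change of 1.01. The region of Hist3h2ba (chromosome 11, 58945920 to 58948919) had 100 and 104 antisense reads in KO, against 13 and 16 reads in WT, and its log2 fold change was 3.599 ± 0.290 (edgeR adjusted p = 7.81e-06). It was 2.65 with the upstream table scaled on itself, and called. The regions of Hist1h4j had 32 and 32 reads in KO, against 14 and 11 reads in WT (2.13 ± 0.433, adjusted p = 0.0113), and those of Hist1h1c 28 and 29 reads in KO, against 9 and 12 reads in WT (2.23 ± 0.454, adjusted p = 0.0113). With the upstream table scaled on itself these were 1.198 and 1.28 (adjusted p = 0.323 for both). The Hist3h2ba gene itself fell (-0.39), with 18.6 and 16.8 CPM in KO, against 21.4 and 24.5 CPM in WT.
The promoter at the edge of that region, with motifs in capitals as above, is shown because it overlaps the end of that region next to the gene.
Hist3h2ba, chr11:58948661-58948960, plus strand: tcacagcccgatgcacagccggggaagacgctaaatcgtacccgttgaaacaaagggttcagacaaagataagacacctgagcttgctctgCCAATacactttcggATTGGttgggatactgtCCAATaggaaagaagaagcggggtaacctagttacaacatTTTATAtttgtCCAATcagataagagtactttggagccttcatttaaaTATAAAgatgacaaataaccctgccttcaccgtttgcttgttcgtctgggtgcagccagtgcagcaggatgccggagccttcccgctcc
It held 4 CCAAT boxes and 2 TATA boxes, the nearer 39 bases before the start. The nearest gene on the antisense strand beyond Hist3h2ba was Hist3h2bb-ps, 5128 bases from the region.

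On the sense strand, 0 of 8 tested upstream regions of members were called by edgeR, 1 had an unadjusted p under 0.05, and 0.0544% of all regions were called higher and 0.00544% lower. That 1 was the Hist1h4d region, which begins 1586 bases after the end of Hist1h3d on the same strand. It had 266 and 355 reads in KO, against 593 and 819 reads in WT (-0.39 ± 0.168, adjusted p = 0.139), and was -1.27 with the upstream table scaled on itself (adjusted p = 0.0556). The Hist1h1c region had 9 and 14 reads in KO, against 12 and 5 reads in WT (1.16, adjusted p = 0.223, and 0.34 with the table scaled on itself), and the Hist3h2ba region 21 and 16 reads in KO, against 9 and 30 reads in WT (0.77, adjusted p = 0.287). The Hist1h1c counts were near background, at 0.995 and 1.375 times in KO and 1.479 and 0.6585 times in WT. Read against the shift of all sense regions (median 0.93), the Hist1h4d region was the one below 0 that came nearest to passing.

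**Figure D5:**
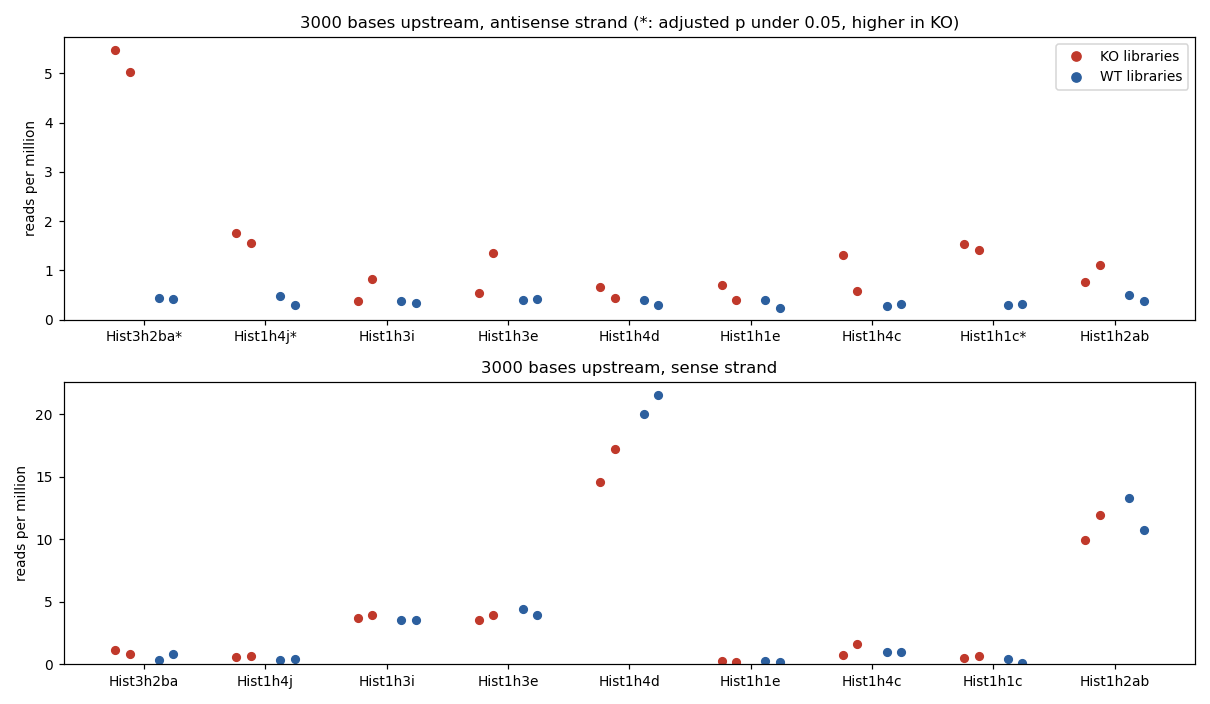
Reads scaled to library size (RPM) in the 3000 bases upstream of 9 clustered histone genes, antisense strand above and sense strand below, KO libraries in red and WT libraries in blue. The antisense reads of Hist3h2ba stand at 5.47 and 5.04 in KO and 0.438 and 0.421 in WT.

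The counts of the lists that follow stand beside 20.3% of all genes lower and 11.6% higher, or 30.6% and 8.45% of genes at 5 times background. Of 26 tested genes of histone mRNA synthesis and 3′ processing, 17 fell and 0 rose (edgeR; 0 higher at an unadjusted p under 0.05, 0 by DESeq2), with a median of -0.28. Slbp, which binds the stem-loops shown above, had 160 and 154 CPM in KO, against 199 and 210 CPM in WT (-0.38 ± 0.0598, edgeR adjusted p = 3.04e-05). Mif4gd, which links Slbp to translation, fell by 0.67, Ncbp1, a cap-binding subunit, by 0.57, Coil, the scaffold of Cajal bodies, by 0.60, and the Sm protein genes Snrpf and Snrpb by 0.37 and 0.36 on the log2 scale. Of 26 histone chaperone genes, 19 fell and Atrx and Rbbp7 rose (median -0.28), while DESeq2 called 18 lower and 0 higher. Without WT replicate 2 neither rise was called, nor was that of Rbbp7 without KO replicate 2 (log2 fold change 0.0639) or without WT replicate 1. Among those that fell were Asf1b (-0.53), Nasp (-0.46) and Chaf1a (-0.41), which carry or deposit newly made H3 and H4, Hat1 (-0.47), which acetylates new H4, Npm3 (-0.50) and Nap1l1 (-0.36). Of 15 tested histone genes outside the clusters, 8 fell and H1fnt, which had under 2 times the background reads, rose (median -0.29); the rise of H1fnt was not called without any 1 of the 4 libraries or by DESeq2. The variants H2afz (-0.47), H2afx (-0.45), H2afy (-0.37), H3f3a (-0.37) and H3f3b (-0.29) fell, as did Gm12260 (-0.50), a predicted gene on this list.

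The S phase, early meiotic, pachytene and differentiating spermatogonial lists had negative medians, as the members did. The median of the undifferentiated spermatogonial list was positive. The part of these lists in the results was not tested. The same shares of all genes (20.3% lower, 30.6% at 5 times background) stand beside their counts. Of 52 genes of DNA replication and S phase, 36 fell (median -0.30), with a summed level of 3264 to 3293 CPM in KO, against 4129 to 4181 CPM in WT; none rose (edgeR; 0 at an unadjusted p under 0.05, 0 by DESeq2). Rfc2 (-0.65), Rpa1 (-0.57), Dut (-0.62), Ccne2 (-0.48), Pcna (-0.50) and Pold1 (-0.60) had the smallest adjusted p. Of 29 tested early meiotic genes 26 fell (median -0.47), with sums of 3923 to 3984 CPM in KO, against 5428 to 5595 CPM in WT, and of 27 tested pachytene genes 23 fell (-0.73), with 6065 to 6863 CPM in KO, against 10460 to 10710 CPM in WT. Stag3 (-0.76), Syce3 (-0.88), Syce1 (-0.79) and Sycp2 (-0.51) of the early meiotic list were among them, as were Crisp2 (-1.01), Spink2 (-0.94) and Ldhc (-0.86) of the pachytene list. These genes were named for their small adjusted p. Of 15 differentiating spermatogonial genes 12 fell and 1, Ccnd2, rose (median -0.41), with 2728 to 2830 CPM in KO, against 3829 to 3926 CPM in WT, and Ddx4 (-0.57) and Dmrtb1 (-0.81) were among those that fell. The rise of Ccnd2 (0.28) was not called by DESeq2 or without KO replicate 2 (0.17). Of 21 undifferentiated spermatogonial genes 2 fell and 3 rose (0.17), with 472 to 482 CPM in KO, against 519 to 524 CPM in WT; Id4 was among those that fell (-0.56) and Tspan8 among those that rose (1.40), while DESeq2 called 3 lower and 0 higher.

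For somatic markers the calls depended on the test. Of 28 Sertoli cell genes edgeR called 7 higher and 0 lower (median 0.13; 1 lower at an unadjusted p under 0.05), while DESeq2 called 1 higher and 3 lower. Their sum was 12400 to 12740 CPM in KO, against 11710 to 11880 CPM in WT. Kitl (0.33), Nr5a1 (0.29) and Sox9 (0.25) were among those higher by edgeR; Sox9 was not called without WT replicate 1 (0.20), and Nr5a1 was 0.19 without KO replicate 2. Of 14 tested Leydig cell genes 4 rose and 4 fell (845 to 872 CPM in KO, 813 to 832 CPM in WT), with Hsd3b6 at 0.65 and Star at -0.48; DESeq2 called 2 higher and 5 lower. Of 20 macrophage genes 13 rose and 1, Fcgr3, fell (387 to 389 CPM in KO, 272 to 274 CPM in WT), with Cd68 at 1.13 and Lyz2 at 0.96; DESeq2 called 9 higher and 1 lower. With libraries scaled to the Sertoli cell genes, 29 clustered histone genes were lower and 1 was higher. Of all genes, 6590 were then lower and 2099 higher, against 5092 and 2906 in the main test. Since the Sertoli sum was higher in KO, this scaling lowers the KO level of every gene relative to WT.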

How the data were processed

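RNA of testes was sequenced in 4 libraries, grouped and numbered by the sample titles. Per the labels' protocols, cDNA came from total RNA by random and poly(T) priming, with strand selection and depletion of targeted transcripts, although the molecule label reads polyA RNA. The values are raw read counts that the authors made with featureCounts 1.6.4 on the gene's strand with GENCODE M18, per the file headers. Reads aligned to several places were left out, since no option that keeps them is recorded. Adapter trimming with cutadapt and alignment with HISAT2 to GRCm38.p5 are named in the submitters' processing notes without versions. Total gene reads were 17663416 to 40329170 per library.

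Members were found by symbol, which 99.72% of genes had. The members, lists and tests were chosen with earlier results of these data known. The test was that of edgeR 4.0.16 under R 4.3.3 (robust quasi-likelihood fit, genotype as the single term, filterByExpr, TMM, Benjamini-Hochberg adjustment over all genes, threshold 0.05). The SE is the log2 fold change divided by the square root of F. Upstream regions were scaled by the gene table's library sizes and TMM factors. Background was the trimmed mean of reads in 3000-base regions upstream of untested autosomal genes, at 3.01 and 3.39 reads per kb in KO and 2.70 and 2.53 in WT. The fits were tested on simulated data. DESeq2 1.42.0 and other settings were alternatives. Values in every library are given for the germ cell variants, the 3 highest members and the 3 with the smallest adjusted p in each class, and any member that rose; of each list, up to 6 genes by adjusted p were eligible, and up to 3 members on each strand upstream. Other members named were chosen after their values were seen.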

Additional observations from a re-analysis of the deposited data

How the results depend on the processing

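Of the 25 lower members, 16 were lower under every setting tried across all genes, among them the germ cell variants, Hist1h4c, Hist1h2ak and Hist1h2bj; the count ranged from 18 to 29. The median over members was -0.03 with library totals, -0.30 by DESeq2 and -0.40 to -0.23 with 1 library left out. The higher count was 1 in the main test, 3 with library totals, 2 with a filter of 1 CPM, 3 with background subtracted and TMM anew, and 2 to 4 with 1 library left out. With library totals 2971 genes were lower and 5386 higher, against 5092 and 2906; 1937 were higher without a filter, 1200 with background subtracted on the kept scale, 440 by DESeq2 and 1324 to 2429 with 1 library left out. Lower H2A and H4 genes were 3 and 5 with library totals, and also with background subtracted and TMM anew; with 1 library left out lower H2A, H2B and H3 genes were 3 to 8, 4 to 8 and 3 to 5, and DESeq2 gave 3 for H3. With the upstream table scaled on itself, 1 antisense region was higher, and the sense value of Hist3h2ba was -0.15.

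Values near 0 changed sign. Hist1h1e was -0.0158 with median-of-ratios scaling, -0.0874 with Sertoli scaling, -0.0666 without a filter, -0.103 by DESeq2 and -0.103 to 0.0304 with 1 library left out. Hist1h1d was 0.0675 and Hist1h2bm 0.0643 with library totals, and 0.0113 and 0.0466 with background subtracted and TMM anew. With 1 library left out, Hist1h1d was -0.265 to 0.0012, Hist1h2bm -0.52 to 0.20 and Hist1h2bb -0.27 to 0.76. The cause of these changes was not tested. A replicate block gave 27 lower and 3 higher members, Hist1h2bb among the higher ones (0.25, adjusted p = 0.000985). Same-numbered libraries were not shown to be paired (correlation of deviations 0.0994 over 13286 genes with at least 100 reads on average). Left-out libraries leave a group of 1, which is assumed to vary like the other group. Replicates differed beyond counting noise, and uniquely assigned reads limit near-identical copies.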
